A study of Mus musculus with 18 samples.

Results

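The genes of bile acid synthesis and transport were followed in the liver of *Rps2*-A226Y mice. They are 10 of the 22524 genes in the count lists, taken by gene symbol and matched to their Ensembl identifiers: *Cyp7a1*, *Cyp8b1*, *Cyp27a1*, *Cyp7b1*, *Slc27a5*, *Baat*, *Slc10a1*, *Abcb11*, *Nr1h4* and *Nr0b2*. Liver mRNA of 10 A226Y and 8 wild-type (WT) mice was sequenced with 1 library per mouse, and all animals were 15-month-old females on the C57BL/6 background, onto which the knock-in had been crossed from embryonic stem cell chimeras. The A226Y mice were heterozygous for a knock-in allele in which an alanine of RPS2, a protein of the small ribosomal subunit, is replaced by tyrosine, a change that lowers the accuracy of translation. The allele is silent until Cre removes a *lox*P-flanked STOP cassette from its first exon. The mutant line came from a cross with mice that carry Cre under the ubiquitous CMV promoter, and the WT mice expressed Cre. Whether each sequenced mutant still carried that transgene is not given in the sources used here. Excision was always partial, and A226Y livers were therefore mosaics of cells with the active mutant allele and of cells with an inactive allele and a single working copy of *Rps2*. The time of day and the feeding state at dissection are not given in the sources used here.

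Hepatocytes make bile acids from cholesterol along a neutral route that CYP7A1 opens and an acidic route that CYP27A1 and CYP7B1 share, while CYP8B1 decides how much of the product becomes cholic acid. The products are activated to CoA esters by the protein of *Slc27a5*, joined to taurine by BAAT, pumped into bile by the export pump of *Abcb11* and taken back from portal blood by the uptake carrier of *Slc10a1*. Bile acids activate the nuclear receptor FXR, encoded by *Nr1h4*, which induces *Nr0b2* (SHP, a repressor of *Cyp7a1* and *Cyp8b1*) and *Abcb11*, and this loop keeps the pool in bounds.

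Of the 10 genes, 1 was changed in A226Y liver. *Slc27a5* was 0.765 times its WT level, with a 95% interval of the fold from 0.677 to 0.864, and the other 9 genes did not pass the test. All 10 genes were tested, with between 239 counts (*Nr0b2*) and 52435 counts (*Slc27a5*) in a single mouse. At an adjusted p-value under 0.05, the calls were 1 of 10 genes, 0 higher and 1 lower, beside 14.3% of all 13353 genes tested (7.27% higher and 7.03% lower). The median size of the log2 fold change, regardless of sign, was 0.08 for the 10 genes and 0.14 for all genes tested. At an unadjusted p-value under 0.05, *Slc27a5* was also the only one of them, beside 3953 genes of all tested. The test was edgeR's two-sided quasi-likelihood test with Benjamini-Hochberg adjustment over all tested genes, and single genes were also compared with exact permutation tests over the 43758 divisions of the mice. Litters and batches are not given in the labels. These p-values measure the spread between mice taken as independent, which could not be checked.

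The total count per mouse lay between 23850565 and 62126131 in A226Y (median 32058379) and between 25869192 and 34918732 in WT mice (median 31702989). *Rps2* itself, summed over mutant and normal transcripts, was at 46.9 to 83.0 CPM (counts relative to the TMM-scaled size of the library) in A226Y and 104 to 143 CPM in WT mice, with no overlap (log2 fold change −0.73, standard error (SE) 0.11, adjusted p = 0.000772). A226Y animal 29 stood apart from its group. Its median distance from the group median over 11941 genes was 0.261 on the log2 scale, against 0.0976 to 0.159 for the other A226Y mice and 0.113 to 0.184 for the WT mice. Without it 2560 genes were called in place of 1910, and the number of bile acid genes called was again 1.

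**Figure D1:**
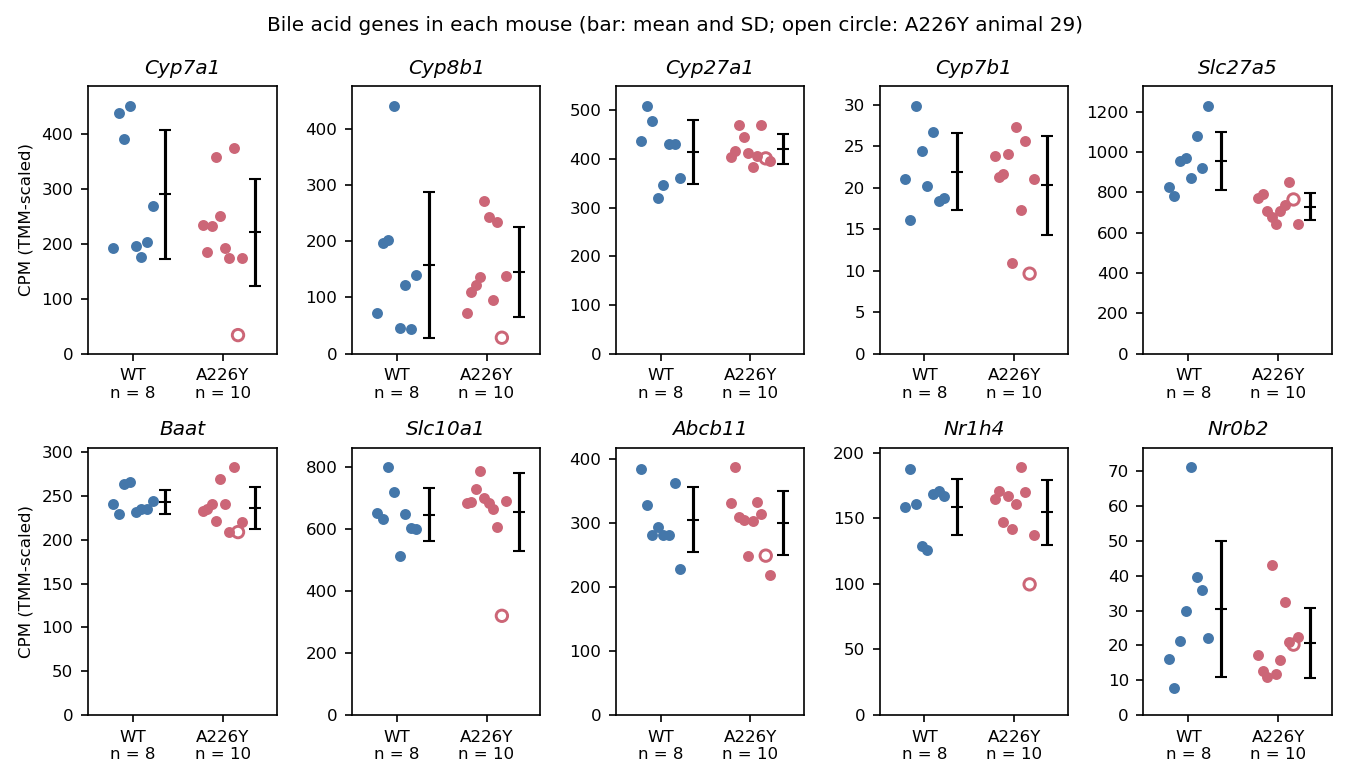
The 10 bile acid genes in each of 8 WT and 10 A226Y mice, in CPM scaled with TMM on an axis from 0, with 1 point per mouse and a bar for mean and SD. *Slc27a5* is the gene in which 8 of 10 A226Y mice lie below every WT mouse. Animal 29 (open circle) is the lowest A226Y mouse for *Cyp7a1*, *Cyp8b1*, *Cyp7b1*, *Slc10a1* and *Nr1h4*, and, just below animal 22, for *Baat*.

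*Slc27a5* (ENSMUSG00000030382, chromosome 7 of GRCm38 from 12988346 to 12998192, minus strand) encodes the bile acid CoA ligase of the endoplasmic reticulum, which also takes up and activates long-chain fatty acids. In the A226Y mice its level was lowest at 644 CPM, at a median of 723 CPM and highest at 852 CPM. In the WT mice the lowest level was 784 CPM, the median 938 CPM and the highest 1230 CPM. All 10 A226Y mice lay below the WT mean, 8 lay below every WT mouse, and 6 WT mice lay above every A226Y mouse. The means were 730 ± 66.8 CPM (SD, n = 10) and 955 ± 144 CPM (SD, n = 8). On the log2 scale this was a change of −0.39 with an SE of 0.08 (95% interval −0.56 to −0.21, adjusted p = 0.00627, edgeR). A two-sided exact permutation test gave p = 0.00032. Whichever single mouse was dropped, the value lay from −0.42 to −0.33. A fit with 4 surrogate variables gave −0.22, which no longer passed (adjusted p = 0.156). In bulk tissue, fewer cells of a type cannot be told apart from less RNA per cell.

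Lists of marker genes gave the following values beside the decrease of *Slc27a5*. Among 8 hepatocyte markers, 2 were higher (*Apob* and *Tat*) and none lower, while 3 had negative log2 fold changes (*Ahsg* −0.25, *Ttr* −0.22 and *Fgb* −0.20) and 4 had an unadjusted p-value under 0.05. Their summed level ranged from 82900 to 153000 CPM in A226Y and from 96200 to 190000 CPM in WT mice. None of the 7 cholangiocyte, 7 endothelial and 8 lymphocyte markers tested was called by edgeR (1 of each list at an unadjusted p-value under 0.05) or by DESeq2, while 1 of 7 Kupffer cell markers (*Clec4f*) and 2 of 7 stellate cell markers (*Col1a1* and *Col3a1*) were lower. Of the stellate cell markers 3 were positive and 4 negative, with *Dcn* at 0.18, and neither collagen passed with surrogate variables. Of the Kupffer cell markers 6 of 7 had negative log2 fold changes (median −0.42), and 4 were called without A226Y animal 29, 3 without A226Y animal 05, 2 without WT animal 06 or 24 and 0 without WT animal 14. The hepatocyte calls went to 0 without A226Y animal 07 or WT animal 14, 21 or 24. The summed Kupffer cell markers ranged from 269 to 1060 CPM in A226Y and from 404 to 817 CPM in WT mice. Of 10 genes that rise with feeding, 5 were lower (among them *Srebf1*, *Fasn*, *Pklr* and *Thrsp*) and none higher. All 10 had negative log2 fold changes (median −0.64, 6 at an unadjusted p-value under 0.05), with summed levels of 1280 to 3220 CPM in A226Y and 1940 to 4550 CPM in WT mice. Of 10 genes that rise with fasting, 2 were higher (*Igfbp1* and *Ppargc1a*) and all 10 had positive log2 fold changes (median 0.52, 7 at an unadjusted p-value under 0.05), with sums of 13100 to 21900 CPM against 8250 to 16200 CPM. The fasting calls were 4 without A226Y animal 29 or WT animal 06, and 1 without WT animal 13, 14 or 24. Of 10 pericentral genes, 3 were lower (*Cyp1a2*, *Rhbg* and *Gulo*), while 7 had negative and 3 positive log2 fold changes (median −0.11). Their sums were 4680 to 11000 CPM in A226Y and 8450 to 14100 CPM in WT mice. *Cyp2e1*, which was not called, had means of 6900 and 8290 CPM within them. Of 10 periportal genes, *Cps1* was higher and *Cyp2f2* lower, with 6 positive and 4 negative log2 fold changes. The periportal sums were 11000 to 15200 CPM in A226Y and 8120 to 13000 CPM in WT mice. The part of these differences in the result for *Slc27a5* was not tested.

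*Baat* (chromosome 4 from 49489422 to 49506557, minus strand) encodes the enzyme that follows the ligase and transfers the activated bile acid to taurine. Its level was between 209 and 283 CPM in A226Y mice (median 234 CPM) and between 230 and 266 CPM in WT mice (median 238 CPM). The groups overlapped, although the lowest 4 A226Y mice lay below and the highest 2 above every WT mouse. Its log2 fold change was −0.04 with an SE of 0.07 (adjusted p = 0.713), and the 95% interval allows folds from 0.885 to 1.07. The pair was also described per mouse as a ratio of levels per kilobase of exon, which was looked at after the values of both genes were seen and carries no test. The log2 ratio of *Slc27a5* to *Baat* was 1.30 ± 0.18 (SD, n = 10) in A226Y and 1.63 ± 0.20 (SD, n = 8) in WT livers, and 8 A226Y mice lay below every WT mouse.

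**Figure D2:**
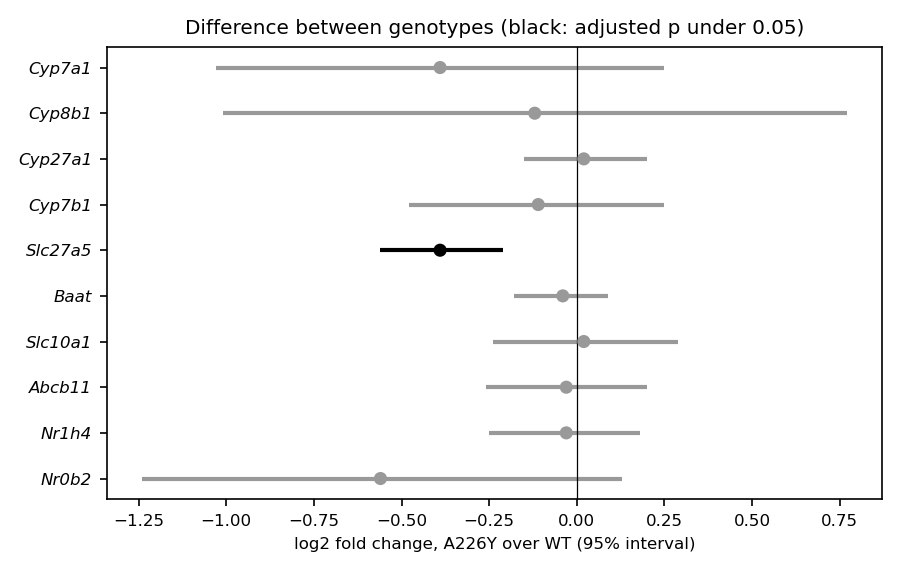
Log2 fold change of each bile acid gene in A226Y relative to WT mice (points) with its 95% interval from edgeR (lines), black where the adjusted p-value was under 0.05. The interval of *Slc27a5* runs from −0.56 to −0.21, the other 9 intervals include 0, and those of *Cyp7a1*, *Cyp8b1* and *Nr0b2* are the widest.

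*Cyp7a1* (chromosome 4 from 6265612 to 6275633, minus strand), the rate-limiting enzyme of the neutral route, had one of the widest ranges. It was between 33.6 and 375 CPM in A226Y mice (median 212 CPM) and between 177 and 452 CPM in WT mice (median 236 CPM). WT animals 06, 13 and 14 were above every A226Y mouse, with 439, 392 and 452 CPM, while the other 5 WT mice lay at 177 to 269 CPM, within the A226Y range. The low end belonged to A226Y animal 29, and the other A226Y mice had at least 175 CPM. *Cyp7a1* had a log2 fold change of −0.39 with an SE of 0.31 (adjusted p = 0.414; exact permutation test p = 0.207). It was −0.26 without animal 29, −0.51 without A226Y animal 23 and −0.58 with surrogate variables (SE 0.19, adjusted p = 0.115, edgeR). With all mice and no surrogate variables, its size was that of *Slc27a5*, with a standard error about as large as the change itself. The 95% interval of that fit allows folds from 0.49 to 1.19.

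*Cyp8b1* (chromosome 9 from 121914356 to 121916305, minus strand, a gene with 1 exon) encodes the enzyme that directs the neutral route to cholic acid. Its level was between 28.1 and 272 CPM in A226Y mice (median 129 CPM) and between 43.1 and 441 CPM in WT mice (median 131 CPM). The groups overlapped almost entirely, with A226Y animal 29 below and WT animal 14 above all other mice. For *Cyp8b1* the log2 fold change was −0.12 with an SE of 0.43 (adjusted p = 0.882), and it turned to 0.30 (adjusted p = 0.664) without WT animal 14. Folds from 0.497 to 1.7 lie within the 95% interval.

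The acidic route was described by *Cyp27a1* (chromosome 1 from 74713574 to 74737892, plus strand), the mitochondrial enzyme that oxidizes the sterol side chain, and by *Cyp7b1* (chromosome 3 from 18071950 to 18243338, minus strand), which hydroxylates the oxysterols it makes. *Cyp27a1* was between 384 and 469 CPM in A226Y mice (median 409 CPM) and between 320 and 509 CPM in WT mice (median 430 CPM). All A226Y mice thus fell inside the WT range (log2 fold change 0.02, SE 0.08, adjusted p = 0.893). *Cyp7b1* was between 9.64 and 27.3 CPM in A226Y mice (median 21.5 CPM) and between 16.1 and 29.9 CPM in WT mice (median 20.7 CPM). A226Y animals 15 and 29, with 10.9 and 9.64 CPM, lay below every WT mouse, and the remaining 8 were inside the WT range. *Cyp7b1* had a log2 fold change of −0.11 with an SE of 0.18 (adjusted p = 0.709). The 95% interval of the fold ran from 0.715 to 1.19 for *Cyp7b1* and from 0.899 to 1.15 for *Cyp27a1*.

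Neither of the transporters passed the test. *Slc10a1* (chromosome 12 from 80953183 to 80968705, minus strand), the sodium-dependent uptake carrier NTCP, was between 320 and 786 CPM in A226Y mice (median 687 CPM) and between 512 and 799 CPM in WT mice (median 639 CPM). A226Y animal 29 had the 320 CPM, less than any other mouse, while the other 9 A226Y mice lay at 606 to 786 CPM, inside the WT range. Its log2 fold change was 0.02 with an SE of 0.13 (adjusted p = 0.925), and 0.10 without that animal. *Abcb11* (chromosome 2 from 69238282 to 69342616, minus strand), which encodes the bile salt export pump of the canalicular membrane, was between 219 and 387 CPM in A226Y mice (median 307 CPM) and between 228 and 385 CPM in WT mice (median 288 CPM). The ranges were almost the same, and the log2 fold change was −0.03 with an SE of 0.11 (adjusted p = 0.901). The 95% intervals of the fold ran from 0.847 to 1.22 for *Slc10a1* and from 0.838 to 1.15 for *Abcb11*.

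*Nr1h4* (chromosome 10 from 89454234 to 89533585, minus strand), the gene of FXR, was between 99.7 and 189 CPM in A226Y mice (median 163 CPM) and between 126 and 188 CPM in WT mice (median 164 CPM). Apart from animal 29 at the low end and animal 22 at the high end, the A226Y mice lay inside the WT range (log2 fold change −0.03, SE 0.10, adjusted p = 0.857). *Nr0b2* (chromosome 4 from 133553376 to 133556536, plus strand) was the lowest of the 10 genes in a single mouse. It was between 10.9 and 43.0 CPM in A226Y mice (median 18.7 CPM) and between 7.70 and 71.1 CPM in WT mice (median 26.1 CPM). All A226Y mice fell inside the WT range, of which WT animals 06 and 21 formed the ends. Its log2 fold change of −0.56 (SE 0.33, adjusted p = 0.27; exact permutation test p = 0.269) was the largest in size of the 10. It was −0.25 without WT animal 21, −0.74 without A226Y animal 11 and 0.05 with surrogate variables, and the 95% interval allows folds from 0.422 to 1.10.

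Counts per kilobase of exon make the genes comparable with each other. Over all 18 mice the mean CPM per kilobase was 340 for *Slc27a5*, 296 for *Slc10a1*, 192 for *Cyp27a1*, 123 for *Baat*, 77.4 for *Cyp8b1*, 68.0 for *Nr1h4*, 60.3 for *Cyp7a1*, 58.7 for *Abcb11*, 22.1 for *Nr0b2* and 9.71 for *Cyp7b1*. At the top, *Slc27a5* was above *Slc10a1* in 8 of 8 WT mice (means 392 and 293) and in 4 of 10 A226Y mice (means 299 and 298). *Slc10a1* was above *Cyp27a1* in 17 of 18 mice. *Cyp27a1* was above *Baat* in all 18 mice and *Baat* above *Cyp8b1* in 15. The middle of the order was not fixed, since *Cyp8b1* was above *Nr1h4* in 7 mice, *Nr1h4* above *Cyp7a1* in 13, and *Cyp7a1* above *Abcb11* in 7. *Abcb11* was above *Nr0b2* in 17 mice and *Nr0b2* above *Cyp7b1* in 16. The first-step enzyme of the acidic route was thus at a higher transcript level than that of the neutral route, and *Cyp7b1* lower than both. Per kilobase, the log2 ratio of *Cyp8b1* to *Cyp7a1* was 0.45 ± 0.63 in the 10 A226Y mice and −0.07 ± 0.74 in the 8 WT mice (mean ± SD). For *Cyp7a1* to *Cyp7b1* it was 2.36 ± 0.73 and 2.70 ± 0.63, and for *Cyp7b1* to *Cyp27a1* −4.43 ± 0.50 and −4.24 ± 0.39. The differences in these ratios between the genotypes were smaller than 1 SD of either group.

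The 10 genes differed widely in how much they varied between mice of the same genotype. The SD of log2 CPM within a genotype was 1.05 for *Cyp8b1*, 0.819 for *Cyp7a1* and 0.791 for *Nr0b2*, above 99.2%, 98.4% and 98.3% of 11941 tested genes that averaged 1 CPM or more, whose median was 0.194. The value of *Cyp7a1* was carried in part by A226Y animal 29, without which it was 0.498 (above 95.3% of the genes), while *Cyp8b1* had 0.920 and *Nr0b2* 0.817 without that animal. These are the enzymes that set the rate and the composition of the neutral route, and the repressor of both. *Cyp7b1* followed with 0.433 (above 90.5% of the genes). At the other end *Baat* had an SD of 0.121 (above 13.2%), *Slc27a5* of 0.170 (above 39.3%) and *Cyp27a1* of 0.173 (above 40.7%). *Nr1h4*, *Abcb11* and *Slc10a1* lay between, with 0.234, 0.243 and 0.301, and *Slc10a1* fell to 0.148 (above 34.1%) without animal 29. The highest mouse of both groups exceeded the lowest 15.7-fold for *Cyp8b1*, 13.5-fold for *Cyp7a1* and 9.23-fold for *Nr0b2*, but 1.36-fold for *Baat*. Single mice set these ranges: the fold was 2.59 for *Cyp7a1* without A226Y animal 29, 9.66 for *Cyp8b1* without WT animal 14 and 5.58 for *Nr0b2* without WT animal 21.

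**Figure D3:**
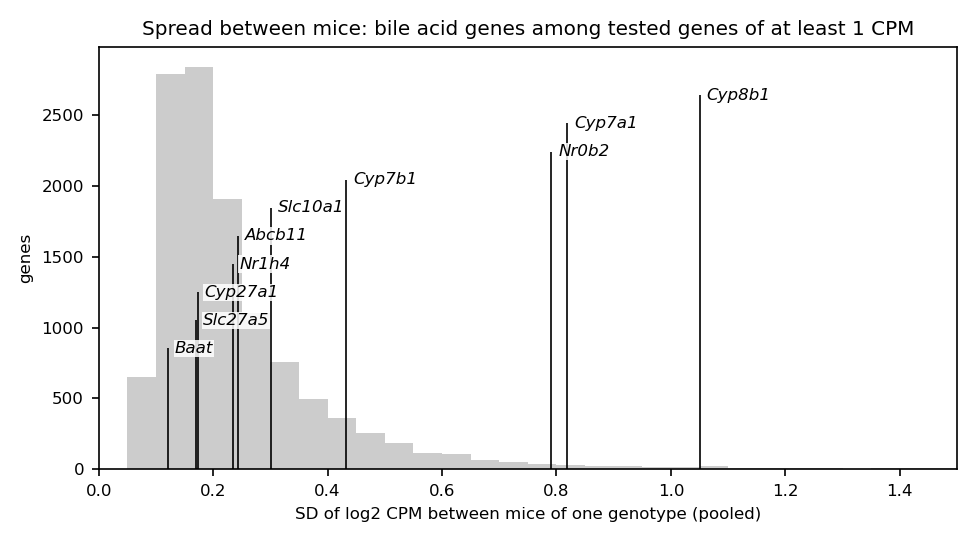
Histogram of the SD of log2 CPM between mice of the same genotype for 11941 tested genes of at least 1 CPM, with a line at the SD of each of the 10 bile acid genes (line heights are set for legibility only). *Nr0b2*, *Cyp7a1* and *Cyp8b1* lie far to the right, at 0.791 to 1.05 (*Cyp7a1* at 0.498 without A226Y animal 29), and *Baat*, *Slc27a5* and *Cyp27a1* near the bulk of the genes.

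Whether the variable genes moved together was examined within each genotype for 4 pairs (8 relations). *Cyp7a1* and *Cyp8b1* had a positive correlation in the WT mice that did not pass after adjustment (Pearson r = 0.84, exact permutation p = 0.00913, adjusted p = 0.073; Spearman rho = 0.74, exact permutation p = 0.0458, adjusted p = 0.367). Without the 2 mice farthest from the median of *Cyp7a1*, animals 14 and 06, r was 0.69. In the A226Y mice r was 0.79 (permutation p = 0.0186, adjusted p = 0.0744; rho = 0.49, permutation p = 0.155, adjusted p = 0.576), but 0.11 without animals 29 and 23, so the relation rested on these animals. *Nr0b2* and *Cyp7a1*, repressor and target, had r = −0.55 in the WT mice (exact permutation p = 0.171, adjusted p = 0.457; rho = −0.43, exact permutation p = 0.299, adjusted p = 0.576) and −0.16 without animals 06 and 21. Their r in the A226Y mice was 0.06 (permutation p = 0.866, adjusted p = 0.875; rho = −0.05, permutation p = 0.892), and −0.28 without animals 11 and 22. For *Nr0b2* and *Cyp8b1* r was −0.43 in WT (exact permutation p = 0.29; rho = −0.45, exact permutation p = 0.267) and −0.17 in A226Y mice (permutation p = 0.641; rho = −0.18, permutation p = 0.631), and −0.02 and −0.26 without the 2 farthest mice. None of the 8 relations passed after adjustment.

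**Figure D4:**
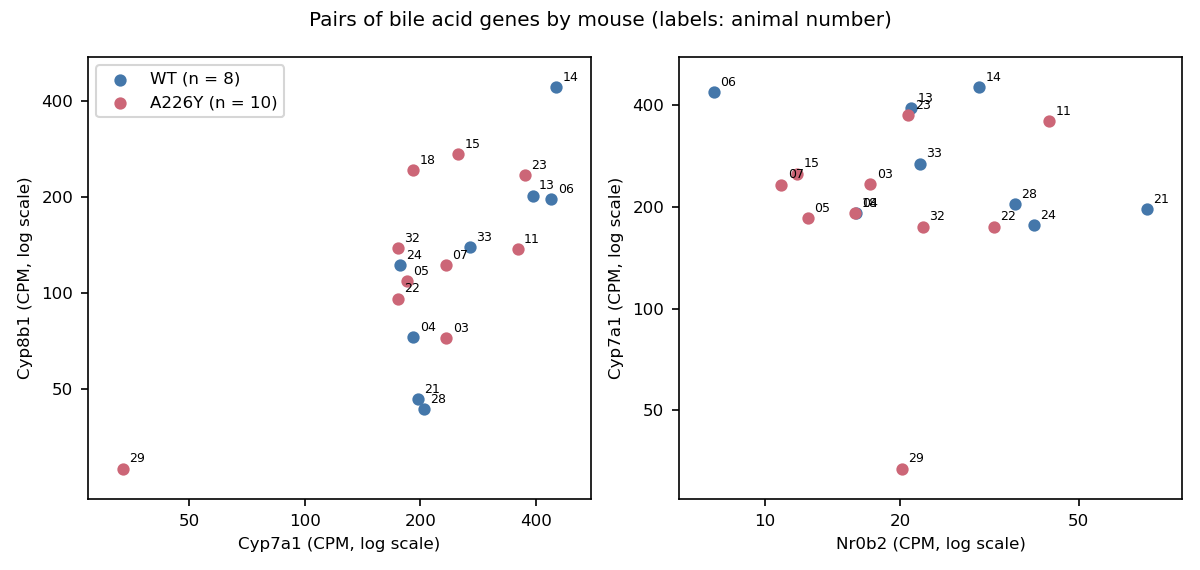
Level of *Cyp8b1* against *Cyp7a1* (left) and of *Cyp7a1* against *Nr0b2* (right) in each mouse, in CPM on log axes, with 1 point per mouse, its animal number beside it, and colour for genotype. A226Y animal 29, at 33.6 CPM of *Cyp7a1*, stands far from the other mice in both panels, and WT animals 06 and 21 form the ends of the *Nr0b2* axis at 7.70 and 71.1 CPM.

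*Nr0b2* and *Abcb11* are both textbook targets of FXR, and their promoters are shown because their transcripts did not follow each other from mouse to mouse. Their r was −0.26 in WT (exact permutation p = 0.532; rho = −0.38, exact permutation p = 0.36) and −0.06 in A226Y mice (permutation p = 0.875; rho = −0.01, permutation p = 1.0), and −0.10 and −0.41 without the 2 farthest mice. RefSeq promoters on GRCm38.p6, from 250 bases before to 50 after a transcript start, were matched for 6 of the 10 genes (*Cyp8b1*, *Cyp27a1*, *Slc10a1*, *Abcb11*, *Nr0b2* and *Nr1h4*). Each was searched on both strands for the nuclear receptor half-site AGGTCA, for TCAAGGTCA, which NR5A2 binds and which contains that half-site, for the E-box CACGTG of clock factors, and for the named repeats IR1 and DR1 of half-sites. The promoter of *Abcb11* lies at chr2:69342567-69342866 on the minus strand, and its capitals mark a half-site on the opposite strand 56 bases before the start. The promoter of *Nr0b2* lies at chr4:133553126-133553425 on the plus strand, and its capitals mark an E-box 195 bases before the start. Both read 5′ to 3′ along the gene:
Abcb11: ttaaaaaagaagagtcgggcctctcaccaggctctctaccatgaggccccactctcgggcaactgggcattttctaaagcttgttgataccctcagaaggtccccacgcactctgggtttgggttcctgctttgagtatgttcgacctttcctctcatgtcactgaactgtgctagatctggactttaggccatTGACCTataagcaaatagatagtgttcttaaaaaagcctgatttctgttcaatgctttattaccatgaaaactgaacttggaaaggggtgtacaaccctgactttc
Nr0b2: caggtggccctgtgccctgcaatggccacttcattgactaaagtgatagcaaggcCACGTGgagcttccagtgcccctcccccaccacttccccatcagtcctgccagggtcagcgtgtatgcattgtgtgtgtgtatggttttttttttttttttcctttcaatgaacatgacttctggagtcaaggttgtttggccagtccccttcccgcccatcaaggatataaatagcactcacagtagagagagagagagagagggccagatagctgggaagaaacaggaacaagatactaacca

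The half-site was also found in the second promoter of *Slc10a1* (87 bases before the start) and in that of *Nr1h4* (214 bases before it). Thus 3 of the 7 promoters of the 6 genes held it, beside 16.3% of 32851 RefSeq mouse promoters of this length. The *Nr1h4* window, chr10:89506609-89506908 on the minus strand, belongs to a start inside the gene, whose annotated 5′ end is at 89533585. The E-box was found in 1 of the 7 promoters and in 7.15% of all promoters. The NR5A2 motif and the IR1 and DR1 repeats were in none of the 7 and in 0.423%, 0.00913% and 0.0396% of all promoters. Only exact matches were sought, with 1 base of any kind between the half-sites of a repeat. With shares this low among all promoters, absence from 7 was likely beforehand. It cannot tell whether sites with a mismatch are present. These matches describe the letters in these windows only.

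The transcripts whose levels most resembled each of the 10 genes were found by Pearson's r of log2 CPM over 18 mice after centring within genotype. These r values are descriptions, and the points share libraries. *Slc27a5* varied with the secreted liver proteins *Plg* (plasminogen, r = 0.84) and *F10* (coagulation factor X, r = 0.82) and with *Sp140* (r = 0.83), and these values were 0.84, 0.83 and 0.85 without animal 29. *F10* (log2 fold change −0.32, adjusted p = 0.00713, edgeR) and *Sp140* (−0.61, adjusted p = 0.0409, edgeR) were also lower in A226Y mice. *Cyp8b1* was most like *St3gal3* (r = 0.88), *Cdk4* (0.88) and *Scap* (0.87), the escort protein of the sterol-sensing SREBP factors, with r of 0.84, 0.83 and 0.88 when animal 29 was left out. *Nr0b2* was most like *Abcb1a* (r = 0.85), a drug export pump, and then *Elovl3* (0.77) and *Lgals1* (0.72). *Cyp7b1* was most like *Oard1* (r = 0.91), *Sult2a2* (0.88) and *Tatdn1* (0.85). For *Cyp7a1* the closest were *Calm2* (r = 0.88), *Zadh2* (0.87) and *Cab39l* (0.87), and for *Slc10a1* they were *Chchd3*, *Atp5c1* and *Lactb2* (0.92 each). Animal 29 bore on these, as r fell to 0.80, 0.62 and 0.54 and to 0.68, 0.66 and 0.67 without it. *Cyp27a1* was nearest to *Fbxo31*, *Cct2* and *Ptpn11* (0.83 each), *Baat* to *Pyurf* (0.86), *Abcb11* to *Sms* (0.87) and *Nr1h4* to *Rabep1* (0.91). Among the 10 genes themselves the highest r was that of *Cyp7a1* with *Slc10a1* (0.83), which rested on animal 29 and was 0.41 without it, while *Cyp7a1* with *Cyp8b1* had 0.76 and 0.67. *Slc27a5* had r between −0.23 and 0.23 with each of the other 9, and between −0.22 and 0.37 without animal 29.

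Around the 10 genes, fixed lists of the remaining pathway were read from the same test. Of 15 other enzymes of synthesis, 14 were tested, none was higher and 2 were lower (14.3% called). The count was 5 without WT animal 06, 1 without A226Y animal 07 or WT animal 21, and 4 with DESeq2. By edgeR with all mice, 8 of the 14 had an unadjusted p-value under 0.05. *Akr1c6*, an aldo-keto reductase of steroids, was at 177 to 671 CPM in A226Y and 714 to 900 CPM in WT mice, with no overlap (log2 fold change −0.70, SE 0.18, adjusted p = 0.0154, edgeR). Short reads could be split between it and its near copy *Akr1c14* (−0.47, adjusted p = 0.159), so both values are uncertain. *Cyp46a1*, which hydroxylates cholesterol in its side chain, was low throughout, with 4.09 ± 1.53 CPM in the 10 A226Y mice and 7.90 ± 4.83 CPM in the 8 WT mice (mean ± SD). Its log2 fold change of −0.96 (adjusted p = 0.0274, edgeR) was −0.62 without WT animal 21 and then did not pass (adjusted p = 0.0759). The other 12 enzymes tested were not called, among them *Hsd3b7* (−0.31, adjusted p = 0.0802), *Amacr* (−0.25, adjusted p = 0.0561), *Akr1d1* (−0.19, adjusted p = 0.307) and the side chain oxidase *Acox2* (0.25, adjusted p = 0.078). In all, 6 of the 14 had positive and 8 negative log2 fold changes, and the highest was that of the oxysterol hydroxylase *Cyp39a1* (0.53, adjusted p = 0.163). *Cyp2c70*, which makes the muricholic acids of mice, had 153 ± 67.1 CPM in A226Y and 233 ± 104 CPM in WT mice (mean ± SD), and its log2 fold change was −0.60 (adjusted p = 0.107, edgeR).

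Of 18 other transporters, 17 were tested, 1 was higher and 1 lower (11.8% called). The count was 7 without WT animal 06, 4 without A226Y animal 29 and 5 with DESeq2. By edgeR with all mice, 10 of the 17 had an unadjusted p-value under 0.05. *Slco1a4*, a sinusoidal organic anion carrier, was at 161 to 411 CPM in A226Y and 135 to 203 CPM in WT mice, with 7 A226Y mice above every WT mouse (log2 fold change 0.77, SE 0.17, adjusted p = 0.006, edgeR). It has close paralogs, and its value is uncertain to that extent. *Abcc6* was at 97.7 to 144 CPM in A226Y and 136 to 181 CPM in WT mice, with 9 A226Y mice below every WT mouse (−0.44, SE 0.07, adjusted p = 0.00152, edgeR). The remaining transporters tested were not called by edgeR with all mice. Among them were *Slco1b2* (−0.03, adjusted p = 0.925), *Abcc2* (0.14, adjusted p = 0.272), the basolateral export pump *Abcc3* (−0.46, adjusted p = 0.0927) and the phospholipid floppase *Abcb4* (0.30, adjusted p = 0.11).

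Of 27 regulators, 24 were tested, 4 were higher and 2 lower (25.0% called). The count was 9 without A226Y animal 29 and 1 with surrogate variables, where all but *Insig2* lost their calls. By edgeR with all mice, 9 of the 24 had an unadjusted p-value under 0.05. The higher genes were *Insig2* (132 to 582 CPM in A226Y, 90.9 to 143 CPM in WT mice), which holds the SREBP factors in the endoplasmic reticulum, *Ppargc1a*, a coactivator induced in fasting, *Klb*, the hepatic co-receptor of the intestinal hormone FGF15, and the deacetylase *Sirt1*. Their log2 fold changes were 1.13 (adjusted p = 0.00423), 0.74 (0.00539), 0.46 (0.0162) and 0.28 (0.00866), from edgeR. The lower genes were *Nr1i3*, the xenobiotic receptor CAR (−0.46, adjusted p = 0.0321, edgeR), and *Foxa2* (−0.33, adjusted p = 0.0148, edgeR). *Nr1i3* was called in 9 of 12 alternatives and 12 of 18 times with 1 mouse left out, and lost its call without A226Y animal 07, 11 or 15 or WT animal 24, 28 or 33 (adjusted p up to 0.0744, edgeR). The receptor of FGF15, *Fgfr4* (0.06, adjusted p = 0.652), and the activators of *Cyp7a1* and *Cyp8b1*, *Nr5a2* (0.13, adjusted p = 0.242) and *Hnf4a* (0.08, adjusted p = 0.59), did not pass. *Ch25h*, *Slc51a*, *Vdr*, *Gpbar1* and *Fgf15* were not tested, since none had more than 7 counts in any mouse, and *Fgf15*, a hormone of the ileum, had 0 counts in all of them.

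Since *Cyp7a1* is known for its daily rhythm, 17 clock genes were read as well, of which 1 (*Clock*) was higher and 2 (among them *Bhlhe40*) were lower (17.6% called). Without A226Y animal 29 the calls were 6. *Clock* was at 30.4 to 40.1 CPM in A226Y and 16.0 to 28.1 CPM in WT mice, with no overlap (log2 fold change 0.61, adjusted p = 0.000932, edgeR). The rhythmic genes *Nr1d1* (0.45, adjusted p = 0.252) and *Dbp* (−0.21, adjusted p = 0.594) were not called. Of the genes that differ between the sexes, 1 was higher and 2 were lower of 7 male-biased genes tested, and 1 was higher and 1 lower of 10 female-biased genes. The male-biased calls went to 1 without WT animal 13, 14 or 21, and the female-biased calls to 1 without A226Y animal 11, 18 or 32 or WT animal 13, 14 or 24. The part of these differences in the spread of *Cyp7a1* and *Cyp8b1* was not tested.

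**Figure D5:**
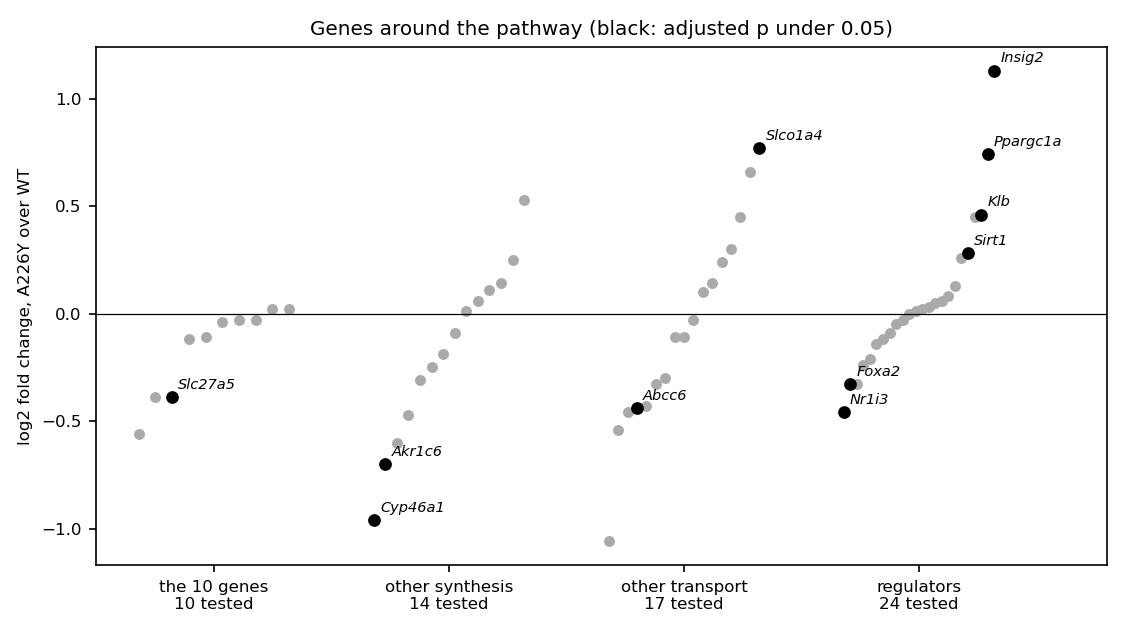
Log2 fold change in A226Y relative to WT mice of the 10 bile acid genes, 14 other synthesis genes, 17 other transporters and 24 regulators tested, 1 point per gene in order of its value within its list, black and named where the adjusted p-value was under 0.05. *Slc27a5* is the only black point of the first list, and *Insig2*, at 1.13, is the highest of the regulators.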

How the data were processed

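Liver mRNA of 10 A226Y and 8 WT mice was sequenced as short single-end reads. The authors deposited unnormalized counts, whole numbers for each Ensembl gene in each mouse. The submitters' processing notes name bcl2fastq, fastp, STAR, featureCounts, MultiQC and GRCm38, while the methods name RSEM with an Ensembl annotation. Which of them gave the counts, and whether strand was used, is not given in the sources used here. None of the 10 genes overlaps another annotated gene. Symbols, positions and exon lengths came from GENCODE M21 on GRCm38 (22291 of 22524 identifiers matched).

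A gene was tested if 50% or more of the mice of either genotype reached 10 counts. The test was run with edgeR 4.0.16 in R 4.3.3 (TMM scaling, quasi-likelihood test, Benjamini-Hochberg over 13353 genes, called under 0.05). CPM are counts relative to the TMM-scaled library size, and log2 CPM used a prior count of 2. Standard errors are the log2 fold change over the square root of F. The biological coefficient of variation was 0.194. No pair of mice of a genotype had counts as close as sampling noise (chi-square per degree of freedom at least 20.18). Exact permutation tests of log2 CPM (scipy 1.17.1) cannot give a two-sided p under 4.57e-05. Correlations used exact pairings for 8 mice and 100000 permutations for 10.

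The members and lists were chosen with earlier results of these data known. The genes named are the 10 members, *Rps2*, genes of the lists that passed the test, and the 3 genes most alike to each member among those averaging 1 CPM or more. Other list genes were named after their values were seen. Some list genes that passed are counted but not reported singly here. Alternatives were RLE, upper-quartile and library-size scaling, no filter beyond 1 count, 10 counts in every sample, filterByExpr, robust fitting, DESeq2 1.42.0, limma-voom 3.58.1, 4 surrogate variables (sva 3.50.0), offsets for transcript length or GC content, and leaving out each mouse. The spread and pairs of members without single mice, and their order by genotype, were added after the data were seen. The procedures were tested on simulated counts. Single mice far from their group were sought with Dixon's criterion.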

Additional observations from a re-analysis of the deposited data

Results flagged for a closer look

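In 22 groups of mice (the 10 bile acid genes and *Rps2* in each genotype), 2 single values lay farther from the rest than Dixon's 95% limit. Chance alone passes that limit in about 1 in 20 groups if the values are normally distributed. The limit was applied to CPM and not to log2 CPM, and which values pass can depend on the scale. *Cyp8b1* in WT animal 14 was at 441 CPM, whereas the other 7 WT mice were at 43.1 to 202 CPM (gap over range 0.601). *Slc10a1* in A226Y animal 29 was at 320 CPM, whereas the other 9 A226Y mice were at 606 to 786 CPM (gap over range 0.615). Animal 29 was also the A226Y mouse farthest from its group over all genes.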

How the results depend on the processing

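Under the 12 alternatives other than leaving out a mouse, *Slc27a5* was called in 11, with log2 fold changes of −0.39 to −0.34, and lost its call with surrogate variables (−0.22, adjusted p = 0.156). That fit called 0 of the 10 genes and 248 of all genes (2 and 2401 at an unadjusted p-value under 0.05). The cause was not tested. With each mouse left out, *Slc27a5* was called 18 of 18 times (adjusted p = 0.00284 to 0.0168, edgeR), and the count of all genes ran from 1255 (without WT animal 14) to 2560 (without A226Y animal 29). None of the other 9 genes was called under any of the 12 alternatives or without any 1 mouse. With library size as the only scaling, 67.9% of the called genes were higher in place of 50.8%. Signs turned in several genes, of which *Nr0b2* was not near 0 (−0.56 in the test of the report). With surrogate variables the log2 fold change was 0.06 for *Cyp7b1*, 0.01 for *Cyp8b1*, −0.14 for *Cyp27a1*, 0.00 for *Baat* and 0.05 for *Nr0b2*. With library size only it was 0.00 for *Baat*, 0.01 for *Abcb11* and 0.01 for *Nr1h4*, with the length offset 0.02 for *Baat* and 0.03 for *Nr1h4*, and with limma-voom −0.00 for *Slc10a1*. With 1 mouse left out it ranged from −0.27 to 0.30 for *Cyp8b1*, −0.02 to 0.07 for *Cyp27a1*, −0.02 to 0.10 for *Slc10a1*, −0.08 to 0.03 for *Abcb11* and −0.08 to 0.02 for *Nr1h4*. Of the list genes, *Akr1c6*, *Abcc6* and *Insig2* kept their calls throughout, *Slco1a4*, *Ppargc1a*, *Klb*, *Sirt1* and *Foxa2* lost theirs only with surrogate variables, *Cyp46a1* also with the GC offset and without A226Y animal 07 or WT animal 21 (adjusted p up to 0.0759, edgeR), and *Nr1i3* with both offsets and without 6 single mice. No paired analysis was possible because the animal numbers of the 2 genotypes are not shared. What another depth would change was not tested. With surrogate variables the calls were 2 of the synthesis genes, *Akr1c6* and an enzyme not called in the test of the report. They were 1 each of the transporters, regulators, clock, feeding, Kupffer cell and cholangiocyte genes. They were 0 of the fasting, hepatocyte, stellate, pericentral, periportal and sex-biased genes.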
